A study of Mus musculus with 12 samples.

Results

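The genes described here build long-chain fatty acids from acetyl-CoA and put double bonds into them. They are Acly and Acss2, which supply acetyl-CoA, Acaca and Fasn, which make palmitate, the elongase Elovl6, the desaturases Scd1, Scd2, Fads1 and Fads2, and Srebf1, which encodes the transcription factor SREBP-1. Every probe annotated to these 10 gene symbols was taken, which gave 15 of the 45281 probes on the array. Of the 15 probes, 12 were detected above the negative controls (detection p under 0.05) on at least 2 of the 12 arrays and were tested, among 22978 such probes in all. They represent 9 of the 10 genes. The only probe of Acaca, the second probe of Fads1 and the second probe of Srebf1 were not detected on any array.

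RNA came from B16 cells, an established mouse melanoma line that makes melanin in culture, followed through a cycle in which the cells gained and lost pigment. All groups share this line and a serum-containing medium, and the labels name no allele or added agent. Each of days 0, 4, 8, 12, 16 and 20 had 2 arrays, called set 1 and set 2, which the design text describes as 2 cycles run after each other. The arrays of days 4, 8 and 12 carry the label pigmented, and those of days 0, 16 and 20 carry the label depigmented. Per the protocol, the cells taken on days 4, 8 and 12 had been seeded sparsely (100 cells per cm2), and those taken on days 16 and 20 had been replated on day 12 at high density (10000 cells per cm2). The density label of single arrays departs from that account. It gives 100 for day 16 and 10000 for day 8, and it gives 10000 for set 1 but 100 for set 2 on days 0 and 12. The pigmentation label goes with day and with the protocol's seeding density, so between the labelled groups these cannot be told apart. Days 16 and 20, like days 4, 8 and 12, share the pigmentation label and the protocol's seeding and differ in time. The protocol's seeding for day 0 is not given here. Apart from the word cycle, no label says whether the arrays of a given day had cultures of their own, so the p-values measure the spread between those arrays, which may be technical.

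Each array detected between 18508 and 19780 probes. All 10 melanocyte markers, among them Tyr, Dct and Pmel, were detected, and their summed signal ranged from 11658 to 106620 over the arrays. None of 6 adipocyte and none of 3 hepatocyte markers, the classical lipid-making cell types, was detected on any array. Of 5 fibroblast markers, Col3a1 and Dcn were not detected on any array, and Col1a1, Pdgfra and Pdgfrb were tested, with a summed signal of 205 to 407. Of 7 leukocyte markers 2 were tested (summed signal 129 to 259), and of 3 keratinocyte and 3 endothelial markers 1 each. The 4 arrays of days 4 and 8 were as close to each other across days (SD of the log2 difference over all tested probes 0.198 to 0.211) as the 2 arrays of a day were (0.205 to 0.233), while all 56 other pairs of arrays lay further apart (0.482 to 1.08). Whether days 4 and 8 were separate harvests could not be checked here. Fitting the other days without those 4 arrays ended 1 call among the members' comparisons, that of Srebf1 on day 12 against day 0 (adjusted p = 0.0651).

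Fatty acid synthesis starts in the cytosol, where ATP citrate lyase (Acly) cleaves citrate exported from mitochondria and acyl-CoA synthetase short-chain family member 2 (Acss2) activates free acetate, both giving acetyl-CoA. Acetyl-CoA carboxylase (Acaca) turns this into malonyl-CoA, and fatty acid synthase (Fasn) condenses the units to palmitate, which Elovl6 lengthens to stearate. Scd1 and Scd2 then insert the first double bond of oleate and palmitoleate, and Fads1 and Fads2 desaturate essential polyunsaturated fatty acids. SREBP-1 is a membrane-bound factor that is released by proteolysis when sterols or unsaturated fatty acids are scarce, and it is known to activate most of these genes.

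Start-site sequences are shown for 4 of the genes with clear changes that have 1 start each in the RefSeq promoter table used here (mouse build GRCm38.p6), each running from 250 bases before to 50 bases after the annotated start, 5′ to 3′ on the gene's strand. They are given so that the promoters of genes that moved together can be set beside that of Acss2, which moved otherwise. Capitals mark the CCAAT box (CCAAT) and the GC box (GGGCGG) on either strand. Acly lies at chr11:100527951-100528250 on the minus strand, Acss2 at chr2:155517793-155518092 on the plus strand, Elovl6 at chr3:129532136-129532435 on the plus strand and Fads2 at chr19:10101454-10101753 on the minus strand.
Acly: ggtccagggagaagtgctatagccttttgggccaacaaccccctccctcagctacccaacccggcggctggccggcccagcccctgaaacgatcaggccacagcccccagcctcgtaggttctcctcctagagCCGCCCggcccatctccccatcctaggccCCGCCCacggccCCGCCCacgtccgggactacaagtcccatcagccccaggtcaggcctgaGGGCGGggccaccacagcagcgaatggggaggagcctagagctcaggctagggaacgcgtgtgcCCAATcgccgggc
Acss2: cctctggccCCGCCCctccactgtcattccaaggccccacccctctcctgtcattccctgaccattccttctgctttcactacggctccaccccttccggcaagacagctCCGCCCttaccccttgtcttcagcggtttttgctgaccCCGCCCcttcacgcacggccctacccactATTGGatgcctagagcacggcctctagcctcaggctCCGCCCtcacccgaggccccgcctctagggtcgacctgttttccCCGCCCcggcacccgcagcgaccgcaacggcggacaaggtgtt
Elovl6: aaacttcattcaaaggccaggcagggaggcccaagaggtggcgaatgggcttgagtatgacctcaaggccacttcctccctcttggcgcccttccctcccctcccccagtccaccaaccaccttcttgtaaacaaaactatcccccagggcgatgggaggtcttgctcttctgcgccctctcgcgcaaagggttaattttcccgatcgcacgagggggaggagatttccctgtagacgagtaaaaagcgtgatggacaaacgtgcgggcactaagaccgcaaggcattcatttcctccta
Fads2: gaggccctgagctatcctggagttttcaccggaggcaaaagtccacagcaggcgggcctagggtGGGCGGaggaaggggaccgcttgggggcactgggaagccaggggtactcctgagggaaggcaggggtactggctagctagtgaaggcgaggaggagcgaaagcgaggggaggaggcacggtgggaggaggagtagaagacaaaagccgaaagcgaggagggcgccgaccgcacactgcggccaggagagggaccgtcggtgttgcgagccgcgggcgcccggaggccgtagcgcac

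Both motifs occur in the Acly and the Acss2 windows, with 4 GC boxes and 1 CCAAT box for Acly and 5 and 1 for Acss2. The Fads2 window has 1 GC box and no CCAAT box, and the Elovl6 window has neither. Over all 32851 promoter windows of the table, 37.4% hold a CCAAT box and 35.7% a GC box. A sterol regulatory element searched as TCACNCCAC on both strands was in none of the 9 windows listed for 7 of the genes (Acaca, Acly, Acss2, Elovl6, Fads2, Fasn and 3 starts of Srebf1), against 1.24% of all windows. The E-box CACGTG was also in none of them, against 7.15% of all windows. These letters describe the windows only. With 9 windows, a count of none is likely at shares this low, so nothing about the genes is read from it. No window was listed for Scd1, Scd2 or Fads1.

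**Figure D1:**
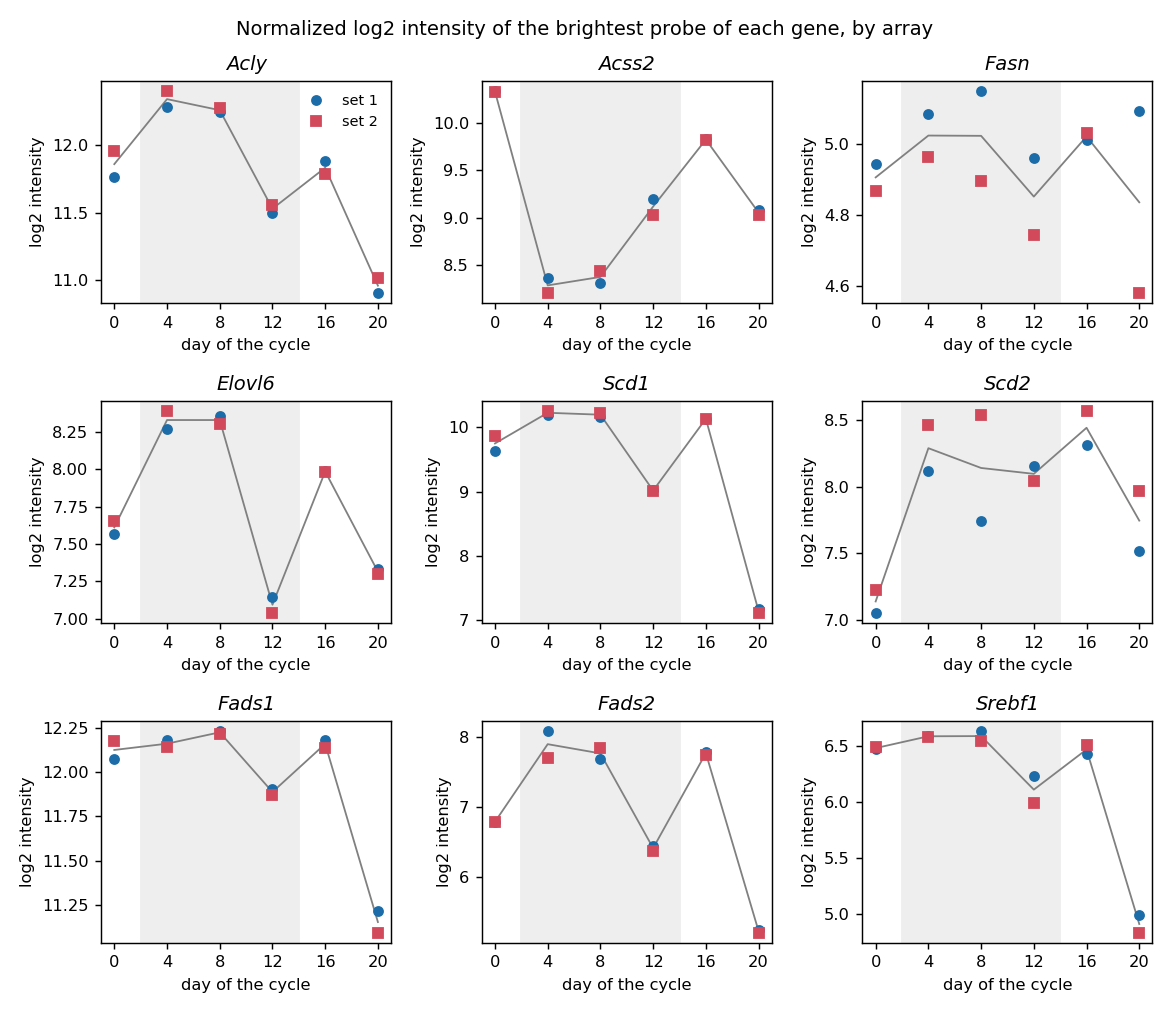
Normalized log2 intensity (vertical axis, a separate scale in each panel) of the brightest probe of each measured gene against the day of the cycle, with a circle for the set 1 array, a square for the set 2 array, a line through the day means and shading over the days labelled pigmented. Acly, Scd1, Fads1, Fads2 and Srebf1 have their lowest day mean on day 20, Acss2 on day 4, Scd2 on day 0 and Elovl6 on day 12.

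Values below are background-corrected, quantile-normalized log2 intensities of the brightest probe of a gene, set 1 first and set 2 second. Changes are log2 differences between day means with their standard error (SE) from limma, with 2 arrays per day. An adjusted p is Benjamini-Hochberg adjusted over all 22978 tested probes, and a probe is said to have risen or fallen where it is under 0.05. Levels of different genes are not compared, since probes differ in affinity. In RNA from bulk cultures, fewer cells that express a gene and less RNA per cell cannot be told apart.

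Acly, the main source of cytosolic acetyl-CoA, was highest on days 4 and 8 and lowest on day 20. Its log2 intensities were 11.76 and 11.95 on day 0, 12.28 and 12.40 on day 4, 12.24 and 12.27 on day 8, 11.50 and 11.56 on day 12, 11.88 and 11.79 on day 16, and 10.90 and 11.01 on day 20. Both arrays of days 4 and 8 lay above every other array, and both arrays of day 20 lay below every other array. Against day 0, Acly rose by 0.48 ± 0.08 (1.40-fold, adjusted p = 1.5e-05) on day 4 and by 0.40 ± 0.08 (adjusted p = 0.000134) on day 8. By day 20 it was 1.86-fold below day 0 (log2 change -0.90 ± 0.08, adjusted p = 1.22e-09). On day 16 the difference from day 0 was -0.03 ± 0.08 (adjusted p = 0.818), and the arrays of the 2 days overlapped. The fall on day 12 against day 0 was -0.33, and -0.55 with median centring. It was not called without the set 2 array of day 0 (-0.23, adjusted p = 0.0507), nor was the rise from day 12 to day 16 (0.30) without the set 1 array of day 16 (adjusted p = 0.0549).

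Acss2, which makes acetyl-CoA from acetate, moved otherwise, with its highest level on day 0. Its brighter probe read 10.34 and 10.33 on day 0, 8.36 and 8.20 on day 4, 8.30 and 8.44 on day 8, 9.20 and 9.03 on day 12, 9.83 and 9.82 on day 16, and 9.08 and 9.02 on day 20. No array of another day reached the day 0 arrays, and the 4 arrays of days 4 and 8 lay below all others. Acss2 fell 4.16-fold from day 0 to day 4 (-2.06 ± 0.09, adjusted p = 2.53e-14) and stood 3.91-fold below day 0 on day 8 (-1.97 ± 0.09, adjusted p = 5.33e-14). It then rose by 0.75 ± 0.09 from day 8 to day 12 (adjusted p = 5.63e-07) and by 0.71 ± 0.09 from day 12 to day 16 (adjusted p = 2.48e-06), while Acly fell and then rose over the same steps. From day 16 to day 20 Acss2 fell by 0.77 on the log2 scale (SE 0.09, adjusted p = 1.49e-07). In the order of its day means, 0, 16, 12, 20, 8 and 4, the neighbours 12 and 20 (0.06 ± 0.09, adjusted p = 0.572) and 8 and 4 (0.09 ± 0.09, adjusted p = 1) were not told apart. Each of the other neighbouring pairs in that order passed the test. The 3 tested fibroblast markers, detected on 6 to 8 of the 12 arrays only, fell with Acss2 on days 4 and 8 against day 0 (medians -1.78 and -1.62). Of all probes 28.7% fell on day 4, and of all genes 33.6% fell on day 8. From day 8 to day 12, where Acss2 rose, 1 marker rose and 2 were not called (median 0.37), beside 26.8% of all genes that rose. From day 12 to day 16, 2 markers rose (median 0.73), beside 20% of all genes. From day 16 to day 20 all 3 fell (median -0.77), beside 34.8%. With genes not detected on a day at their bound, the day 4 and day 20 medians were -1.49 and -0.73. Their part in the Acss2 values was not tested.

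The probes of Acaca and Fasn, whose enzymes turn acetyl-CoA into palmitate, read close to or below the background of the array. Each gene had 1 probe, so a weak probe and a low RNA level cannot be told apart. The Acaca probe had signals between 61.9 and 72.6, not above the negative controls on any array. Fasn was detected on 8 of 12 arrays, at log2 intensities of 4.94 and 4.87 on day 0, 5.09 and 4.96 on day 4, 5.15 and 4.90 on day 8, 4.96 and 4.74 on day 12, 5.01 and 5.03 on day 16, and 5.09 and 4.58 on day 20. The 2 arrays of day 20 were thus further apart than any 2 day means, which spanned 0.19. No comparison called Fasn, and over all 6 days its adjusted p was 0.778. Changes of either gene could not be read at this signal.

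Elovl6, which lengthens palmitate to stearate, was highest on days 4 and 8 and lowest on day 12. Its brighter probe read 7.57 and 7.66 on day 0, 8.27 and 8.39 on day 4, 8.36 and 8.31 on day 8, 7.15 and 7.04 on day 12, 7.99 and 7.98 on day 16, and 7.33 and 7.30 on day 20. The arrays of days 4 and 8 lay above all others, those of day 16 next, and those of day 12 below all others. The day means of days 20 and 12 were not told apart by the test (0.22 ± 0.11, adjusted p = 0.0768). Against day 0 it rose 1.65-fold on day 4 (0.72 ± 0.11, adjusted p = 3.99e-06) and equally on day 8 (adjusted p = 3.95e-06). It fell 2.36-fold from day 8 to day 12 (-1.24 ± 0.11, adjusted p = 3.13e-09) and rose 1.86-fold from day 12 to day 16 (0.89 ± 0.11, adjusted p = 8.61e-07). From day 16 to day 20 it fell by 0.67 ± 0.11 (adjusted p = 8.87e-06). Its smaller differences from day 0 on days 16 (0.37) and 20 (-0.30) lost their calls when both Elovl6 probes were averaged (0.19, adjusted p = 0.264, and -0.06, adjusted p = 0.707), as did the fall from day 16 to day 20 (-0.25, adjusted p = 0.113). The day 16 difference was also not called without the set 1 array of day 0 (adjusted p = 0.0609). The day 20 difference was not called without the set 2 array of day 0 (adjusted p = 0.114) or of day 20 (adjusted p = 0.0667), or from the authors' value table (adjusted p = 0.0659).

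Scd1, the stearoyl-CoA desaturase that makes oleate in many tissues, had the widest span of day means among the measured genes, 3.08 on the log2 scale. Its log2 intensities were 9.63 and 9.87 on day 0, 10.20 and 10.25 on day 4, 10.17 and 10.23 on day 8, 9.03 and 9.01 on day 12, 10.13 and 10.13 on day 16, and 7.17 and 7.12 on day 20. The arrays of days 4, 8 and 16 were all above those of day 0, those of day 12 were below, and those of day 20 were far below all others. Scd1 rose 1.39-fold from day 0 to day 4 (0.48 ± 0.09, adjusted p = 6.59e-05), fell 2.26-fold from day 8 to day 12 (-1.18 ± 0.09, adjusted p = 3.88e-10) and rose 2.17-fold from day 12 to day 16 (1.12 ± 0.09, adjusted p = 2.23e-09). It then fell 7.93-fold from day 16 to day 20 (-2.99 ± 0.09, adjusted p = 1.81e-17), to 6.08-fold below day 0 (-2.60 ± 0.09, adjusted p = 2.07e-16). In the order of its day means, days 4, 8 and 16 were not told apart step by step (differences of 0.03 and 0.06, SE 0.09), and each further step down, to days 0, 12 and 20, passed the test. Without the set 1 array of day 0, the rise on day 16 against day 0 was 0.26 rather than 0.38 (adjusted p = 0.0506).

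Scd2, a close relative encoded near Scd1 on chromosome 19 and the main form in brain, had its lowest arrays on day 0. It read 7.05 and 7.22 on day 0, 8.12 and 8.47 on day 4, 7.75 and 8.54 on day 8, 8.15 and 8.04 on day 12, 8.32 and 8.57 on day 16, and 7.52 and 7.97 on day 20. Every array of a later day lay above both arrays of day 0, while the later days overlapped one another in part. The rises against day 0 were 1.15 ± 0.19 on day 4 (2.22-fold, adjusted p = 1.55e-05), 0.96 ± 0.19 on day 12 (adjusted p = 0.000207) and 1.31 ± 0.19 on day 16 (2.47-fold, adjusted p = 6.85e-06). On day 12, when Scd1 had fallen below its day 0 level, Scd2 differed from day 8 by -0.04 ± 0.19 (adjusted p = 0.875). That difference turned to a call without the set 1 array of day 8 (-0.44, adjusted p = 0.0476), since the 2 arrays of day 8 lay 0.79 apart.

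Scd2 was still 1.52-fold above day 0 on day 20 (0.61 ± 0.19, adjusted p = 0.00702), where Scd1 was lowest. This call was lost without the set 1 array of day 0 (0.52, adjusted p = 0.0642) or without the set 2 array of day 20 (0.38, adjusted p = 0.147). The fall of Scd2 from day 16 to day 20 (-0.70 ± 0.19, adjusted p = 0.00263) was lost without the set 1 array of day 20 (-0.47, adjusted p = 0.0769). Within single arrays, the log2 difference of Scd1 minus Scd2, set to 0 at the day 0 mean, was -1.74 and -1.65 on day 12 and -2.96 and -3.47 on day 20. The ratio of the 2 desaturases was thus lower than on day 0 in all 10 later arrays, by at least 0.19. That ratio was not tested.

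Fads1, which acts late in the synthesis of arachidonate and eicosapentaenoate, was nearly level until day 16. It read 12.08 and 12.17 on day 0, 12.18 and 12.14 on day 4, 12.23 and 12.22 on day 8, 11.91 and 11.87 on day 12, 12.18 and 12.14 on day 16, and 11.21 and 11.09 on day 20. The arrays of days 0, 4 and 16 overlapped, those of day 12 lay slightly lower, and those of day 20 lay lowest. Fads1 fell 2.01-fold from day 16 to day 20 (-1.0045 ± 0.07, adjusted p = 4.05e-11). The dip on day 12 against day 8 was -0.34 ± 0.07 (adjusted p = 0.000393), and -0.68 with median centring. Its differences from day 0 on days 4 and 8, 0.04 ± 0.07 and 0.10 ± 0.07, were not called, but with median centring in place of quantile normalization they were 0.23 (adjusted p = 0.0136) and 0.27 (adjusted p = 0.0041). The dip against day 0 on day 12 (-0.24) was not called without the set 2 array of day 0 (-0.19, adjusted p = 0.0975) or without the intensity trend (adjusted p = 0.0558). On the authors' value table the day 8 difference was 0.18 (adjusted p = 0.0471).

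Fads2, which catalyses the rate-limiting desaturation of linoleate and alpha-linolenate, rose and fell over a wider range. Its brighter probe read 6.79 and 6.79 on day 0, 8.10 and 7.71 on day 4, 7.69 and 7.85 on day 8, 6.45 and 6.37 on day 12, 7.79 and 7.75 on day 16, and 5.24 and 5.20 on day 20. The 6 arrays of days 4, 8 and 16 lay above day 0 and overlapped each other, those of day 12 lay below day 0, and those of day 20 lay below all others. Against day 0 Fads2 rose 2.16-fold on day 4 (1.11 ± 0.14, adjusted p = 3.72e-07) and 1.98-fold on day 16 (0.98 ± 0.14, adjusted p = 4.87e-06). It fell 2.57-fold from day 8 to day 12 (-1.36 ± 0.14, adjusted p = 4.08e-08), rose by as much to day 16 (1.36 ± 0.14, adjusted p = 9.66e-08), and fell 5.87-fold to day 20 (-2.55 ± 0.14, adjusted p = 5.59e-13). Without background correction that last fall was -1.45. The small fall on day 12 against day 0 (-0.38, adjusted p = 0.0278) was not called without any single array of those 2 days, with adjusted p between 0.0535 and 0.11, or from the authors' value table (-0.18, adjusted p = 0.18). Fads2 lies beside Fads1 on chromosome 19, and relative to day 0 the log2 difference of Fads2 minus Fads1 was positive on all 6 arrays of days 4, 8 and 16 (0.80 to 1.25) and negative on the 4 arrays of days 12 and 20 (-0.64 to -0.12).

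Srebf1 kept within a narrow range up to day 16 and was lowest on day 20. It read 6.47 and 6.49 on day 0, 6.59 and 6.58 on day 4, 6.63 and 6.54 on day 8, 6.23 and 5.99 on day 12, 6.42 and 6.51 on day 16, and 4.99 and 4.83 on day 20. The set 2 array of day 20 was the only array on which the probe was not detected. Arrays of days 0 and 16 overlapped, those of days 4 and 8 lay just above them, those of day 12 lay below, and those of day 20 lay furthest down. Srebf1 fell 2.94-fold from day 16 to day 20 (-1.56 ± 0.15, adjusted p = 6.42e-09) and 2.97-fold from day 0 (-1.57 ± 0.15, adjusted p = 4.9e-09). Both remained called but were smaller without background correction (-0.69 and -0.70) and on the authors' value table (-1.03 and -0.95). On days 4 and 8, where Scd1, Scd2, Acly, Elovl6 and Fads2 had risen, its differences from day 0 were 0.11 ± 0.15 each (adjusted p = 0.574 and 0.566). The lower value of day 12 against day 0 (-0.37 ± 0.15, adjusted p = 0.0448) kept its call in 9 of 23 alternatives, with adjusted p from 0.0112 to 0.287. It was lost without either array of days 0, 4, 8 or 16 or the set 2 array of day 12, and from the authors' value table (-0.15, adjusted p = 0.262). The fall on day 12 against day 8 (-0.48, adjusted p = 0.0109) lost its call from that table (-0.18, adjusted p = 0.165), without the set 1 array of day 8 (adjusted p = 0.0732) and without the set 2 array of day 12 (adjusted p = 0.121). Which Srebf1 transcripts the probe matches was not analysed here, and an RNA level does not measure the cleaved, active protein.

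**Figure D2:**
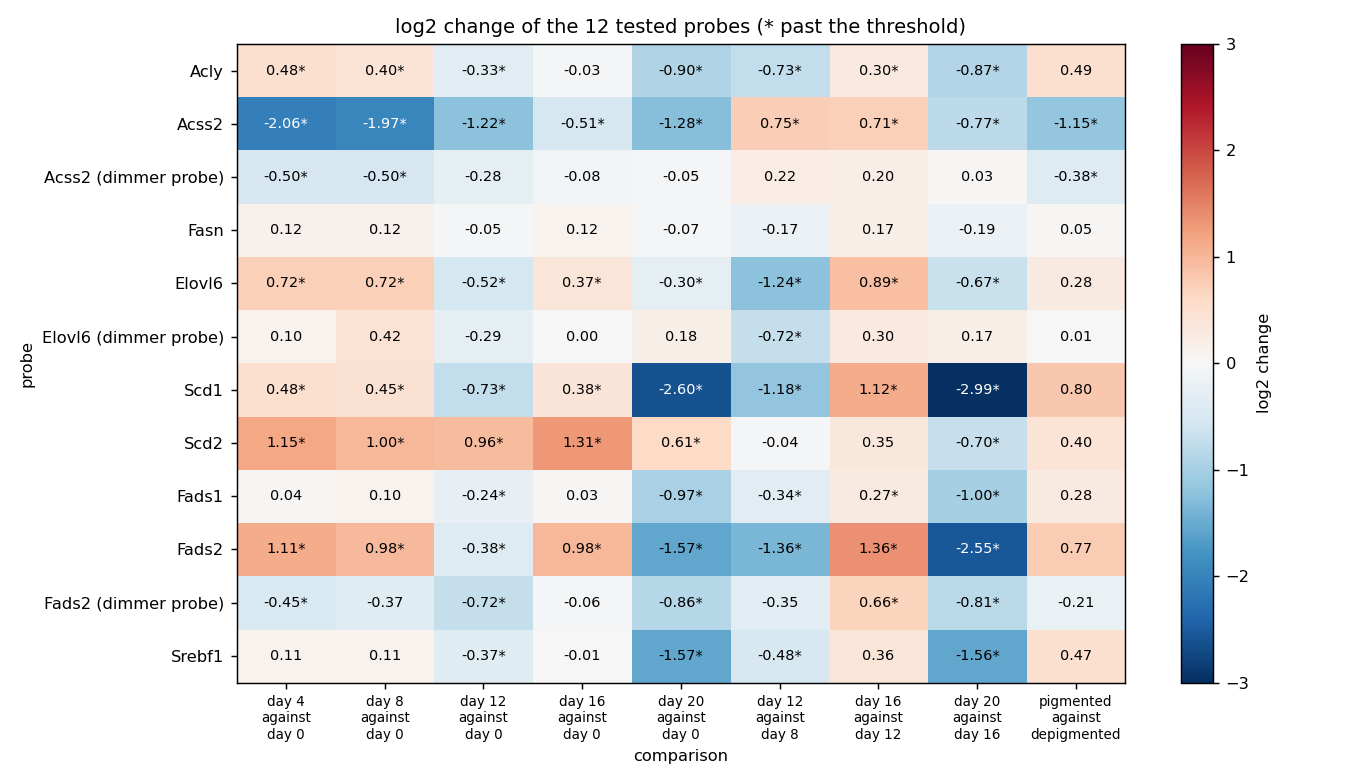
Log2 change of each of the 12 tested probes (rows) in 9 comparisons (columns), coloured from blue for lower to red for higher in the day named first, with an asterisk where the adjusted p is under 0.05. The column for day 20 against day 16 holds 9 starred values, all negative, and the column for day 16 against day 12 holds 7, all positive.

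Read comparison by comparison, the members' counts have to be set beside a background in which much of the array changed. Over the 6 days, 10 of the 12 probes differed among days, against 81.3% of all tested probes, so that a difference somewhere in the cycle is the usual state of a probe here. On day 4 against day 0, 8 of 12 probes were called, 5 higher (Acly, Elovl6, Scd1, Scd2 and Fads2) and 3 lower (both Acss2 probes and the dimmer Fads2 probe), against 58% of all probes. On day 8 the count was 7 of 12, against 58.1%. Both shares are near the background. By direction, 5 of 12 probes rose on each of the 2 days, against 29.4% and 29.3% of all probes.

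No probe of the members, and none of all 22978, was called between days 8 and 4 (0% of probes), where limma gave 631 probes an unadjusted p under 0.05. The members' brightest probes differed there by -0.15 to 0.09, and no adjusted p was under 1. On day 12 against day 8, 8 of 12 probes were called, against 46.8%. Of these 7 fell, against 23.4% of all probes, and the brighter Acss2 probe rose. From day 12 to day 16, 7 of 12 probes were called, against 33.8%. All 7 rose, against 16.8% of all probes, and none fell, against 17.1%. The risen probes belonged to Acly, Acss2, Elovl6, Scd1, Fads1 and Fads2, the last with both probes.

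From day 16 to day 20, 9 of 12 probes were called, against 61%. All 9 fell, against 30% of all probes, and none rose, against 31.1%. They included the brightest probe of each measured gene except Fasn. Their median change over the 12 probes was -0.79, beside a median of -0.003 over all tested probes. On day 20 against day 0, 9 of 12 were called, against 64.3%, with 8 lower (32.1% of all probes) and Scd2 higher (32.2% of all probes). On day 12 against day 0, 9 of 12 were called, against 47.4%, with 8 lower (24.1% of all probes were lower) and Scd2 higher. That count was 5 without the set 2 array of day 0. On day 16 against day 0, 5 of 12 were called, against 43.5%, with Scd1, Scd2, Elovl6 and Fads2 higher (21.2% of all probes) and Acss2 lower (22.3%). That count was 3 without the set 1 array of day 0. Neighbouring comparisons share arrays, so a high or low day enters 2 of them, and all comparisons with day 0 share its 2 arrays.

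Between the pigmentation labels, both calls among the members' probes were of Acss2. In the comparison of the 6 pigmented with the 6 depigmented arrays, whose spread includes that between days, 2 of 12 probes were called, against 13.3% of all probes, which is a share near the background, and both were lower (6.73% of all probes were lower and 6.57% higher). The 6 arrays of a state are pairs from 3 days, and days 4 and 8 were alike, so the p-values count arrays and not days and are too small. The brighter probe was 2.22-fold lower in the pigmented arrays (-1.15 ± 0.27, adjusted p = 0.0158) and the dimmer probe, not detected on any pigmented array, at least 1.04-fold lower (adjusted p = 0.0337). The brighter probe kept its call in all 23 alternatives, with adjusted p from 0.00968 to 0.0447. The count of 2 became 1 without any single array of days 0, 4 and 8, or without the set 2 array of day 20. The groups still overlapped, since the depigmented arrays of day 20 (9.02 and 9.08) and the pigmented arrays of day 12 (9.03 and 9.20) read alike. Scd1 was 0.80 ± 0.56 higher in pigmented arrays (adjusted p = 0.347) and Fads2 0.77 ± 0.50 (adjusted p = 0.309), neither called. For both, days 16 and 20 carried the same label, but day 20 was lowest and day 16 lay near the highest days, 4 and 8.

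**Figure D3:**
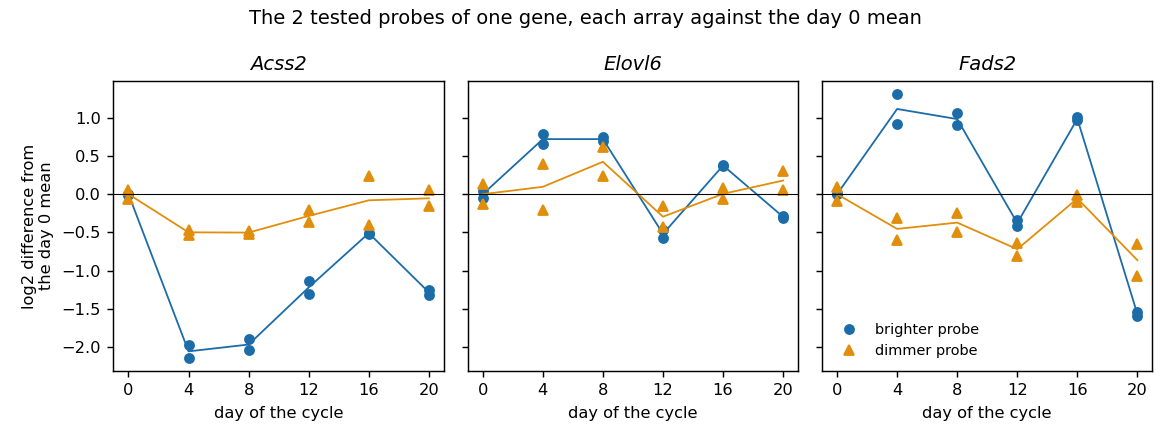
Log2 difference from the day 0 mean (vertical axis) against the day of the cycle for the brighter (circles) and the dimmer (triangles) tested probe of Acss2, Elovl6 and Fads2, with 1 point per array and lines through the day means. On day 4 the brighter Fads2 probe lies above the zero line and the dimmer lies below it.

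For 3 genes a second, dimmer probe was tested, and the pairs agreed in part. For Acss2 the dimmer probe, detected on 5 arrays only, fell on days 4 and 8 against day 0 by 0.50 each (SE 0.18, adjusted p = 0.0236 and 0.0227). On no array of days 4 and 8 was it detected, so that its signal there gives only a bound, at least 1.06-fold lower. It was detected on both arrays of day 20. Its difference from day 0 there was -0.05 ± 0.18 (adjusted p = 0.812), beside -1.28 for the brighter probe. From day 16 to day 20 the difference was 0.03 ± 0.18 (adjusted p = 0.915), beside -0.77. The Acss2 falls to day 20 thus rest on the brighter probe. For Elovl6 the dimmer probe fell from day 8 to day 12 as the brighter did (-0.72 ± 0.20, adjusted p = 0.00521), and was called in no other comparison given here. For Fads2 the pair opposed each other on day 4 against day 0, the brighter up by 1.11 and the dimmer down by 0.45 (SE 0.18, adjusted p = 0.0337). They fell together on day 20 against day 16, the dimmer by 0.81 (SE 0.18, adjusted p = 0.00046), and rose together from day 12 to day 16, the dimmer by 0.66 (SE 0.18, adjusted p = 0.00586). Both Fads2 probes were also below day 0 on days 12 and 20. The dimmer gave -0.72 ± 0.18 on day 12 (adjusted p = 0.00202) and -0.86 ± 0.18 on day 20 (adjusted p = 0.000211). Across the 12 arrays the brighter and dimmer probes correlated at r = 0.73 for Acss2, 0.56 for Elovl6 and 0.58 for Fads2. The transcripts that each probe matches were not analysed here, so the Fads2 rise on days 4, 8 and 16 rests on its brighter probe. With both probes averaged, the Fads2 changes against day 0 were 0.33 on day 4 and 0.46 on day 16, and the fall from day 16 to day 20 was -1.68, each still called. Averaged in the same way, Acss2 differed from day 0 by -1.28 on day 4 and Elovl6 by 0.41.

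**Figure D4:**
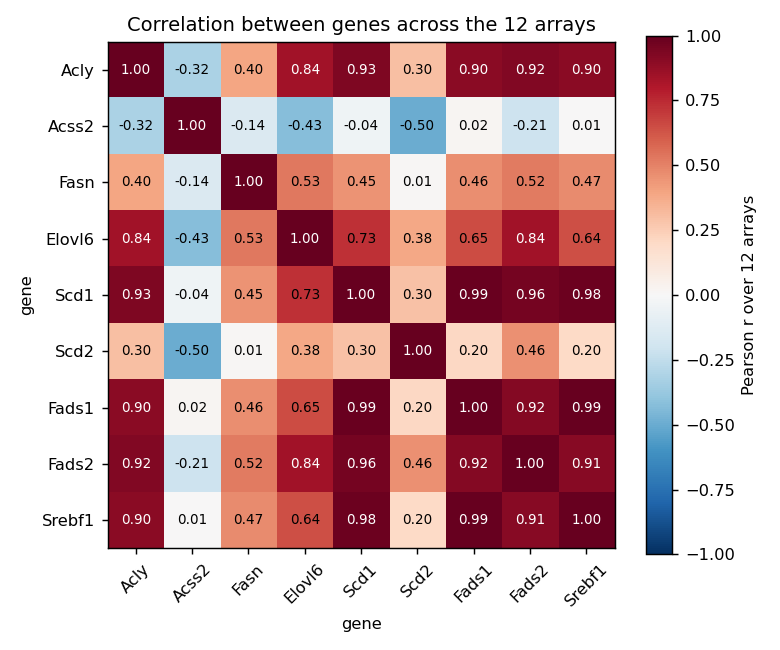
Pearson correlation over the 12 arrays between the brightest probes of the 9 measured genes, in red for positive and blue for negative values. Scd1, Fads1, Fads2, Srebf1 and Acly form a block between 0.90 and 0.99, while Acss2 has values from -0.50 to 0.02.

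Across the 12 arrays, Scd1 ran closest to Fads1 (r = 0.99), Srebf1 (0.98) and Fads2 (0.96), and Acly correlated with these 4 genes at 0.90 to 0.93. Elovl6 correlated with Acly and Fads2 at 0.84 each, and with Srebf1 at 0.64. Scd2 correlated with Scd1 at 0.30 and with no measured member above 0.46. Acss2 had no correlation above 0.02, and its most negative was with Scd2 (-0.50). These 12 arrays are pairs from 6 days, and the day 20 arrays are low for each gene of the first group, so the values describe a shared course and are no test.

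Among 5657 other genes whose day means spanned at least 1 on the log2 scale, the 3 whose course over the 12 arrays was most like that of Scd1 were Chaf1b, Rad54l and Gnptg (r = 0.9955 to 0.9962). For Fads1 they were Pih1d1, Wdr6 and Rfc2 (0.994 to 0.997), and for Srebf1 Nme7, Pih1d1 and Samd14 (0.99 each). Acly was most like Tctn2, R3hcc1 and Crem (0.99 each) and Fads2 most like Gin1, Tyms-ps and Ncoa5 (0.99 each). Elovl6 had Sfxn2 (0.99), Isy1 (0.98) and Lss (0.98), the last of which encodes lanosterol synthase of the cholesterol pathway. Acss2 had Ppm1h, Sertad3 and Plvap (0.99 each). For Scd2 the highest values were lower, 0.92 for Vps26c, 0.91 for Srsf10 and 0.89 for Krcc1.

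**Figure D5:**
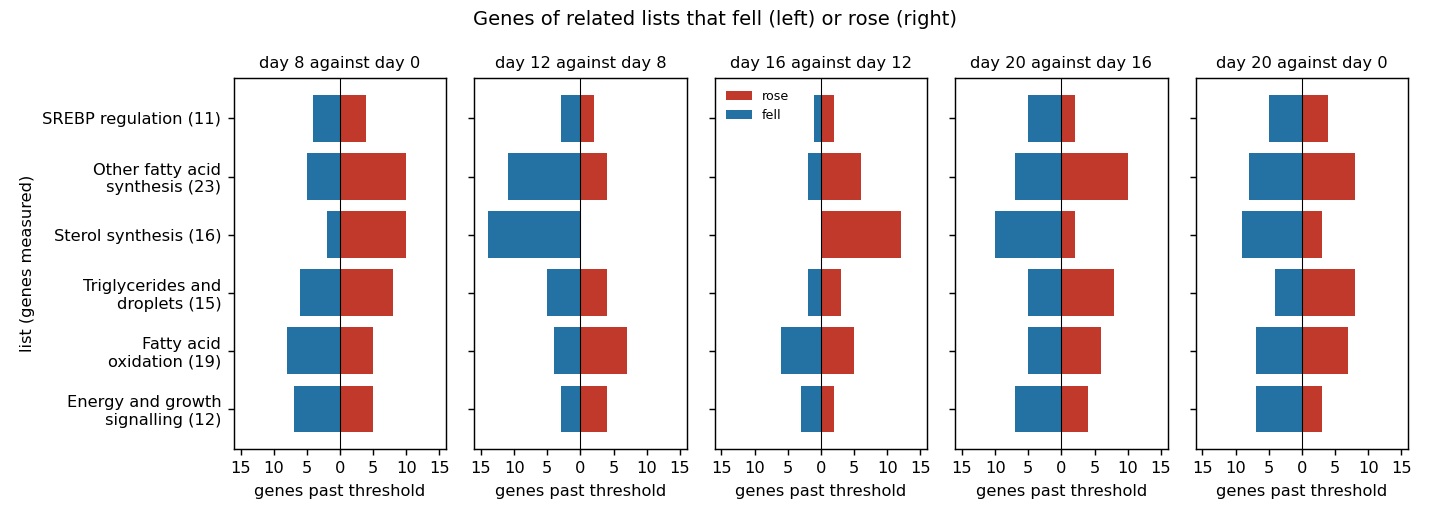
Number of genes that fell (bars to the left, blue) or rose (bars to the right, red) past an adjusted p of 0.05 in 6 lists of related genes (rows, with the number measured) and 5 comparisons (panels). Of the 16 sterol synthesis genes, 14 fell and none rose on day 12 against day 8, and 12 rose and none fell on day 16 against day 12.

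Other genes of lipid metabolism are given from lists, each gene by its brightest tested probe, beside 84.8% of all 11470 measured genes that differed among the days. The regulators of SREBP processing had 11 measured genes. On day 20 against day 16, 5 of them fell and 2 rose (median -0.27), beside 34.8% and 29.8% of all genes. The 2 that rose are not described here, and the other 4 were not called. With genes not detected on a day at their bound, the median was -0.009, so the falls named next do not stand for the whole list. Those that fell included Srebf2, the sterol-directed relative of Srebf1 (-1.15 ± 0.10, adjusted p = 2.97e-09), Scap, which escorts SREBPs to the Golgi (-0.70 ± 0.12, adjusted p = 3.17e-05), and Mbtps1, the site-1 protease that starts their cleavage (-1.60 ± 0.11, adjusted p = 6.35e-11). On day 8 against day 0, 4 rose and 4 fell, with Insig2, which holds SREBPs in the endoplasmic reticulum, up by 1.30 ± 0.07 (adjusted p = 2.14e-12) and Srebf2 down by 0.49 ± 0.10 (adjusted p = 0.000309). Srebf2 rose from day 12 to day 16 by 0.81 ± 0.10 (adjusted p = 2.73e-06), the step at which Srebf1 differed by 0.36 ± 0.15 (adjusted p = 0.0682). That Srebf1 difference was called without the intensity trend (adjusted p = 0.0269) and at gene level with probes averaged (adjusted p = 0.0182).

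Sterol synthesis, which SREBPs also direct, had 16 measured genes, and its counts turned at the same steps as Acly, Elovl6, Scd1 and Fads2. On day 8 against day 0, 10 rose and 2 fell (median 0.75), beside 29% and 33.6% of all genes, led by Nsdhl (2.37 ± 0.13) and Cyp51 (2.21 ± 0.10). On day 12 against day 8, 14 fell and none rose (median -1.37), beside 25.6% and 26.8% of all genes, with Lss at -2.06 ± 0.13 (adjusted p = 3.29e-11). From day 12 to day 16, 12 rose and none fell (median 0.86), beside 20% and 18.9%, with Fdps, which makes farnesyl diphosphate, up by 1.97 ± 0.07 (adjusted p = 5.7e-15). From day 16 to day 20, 10 fell and 2 rose (median -0.58), beside 34.8% and 29.8%, and the 2 became 1 without either array of day 16 or the set 1 array of day 20. Against day 0, 9 were lower on day 20 and 3 higher, beside 38.4% and 29.1% of all genes, and the 9 became 5 without the set 1 array of day 20.

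The remaining enzymes of fatty acid synthesis, elongation and activation, 23 measured, moved both ways. On day 8 against day 0, 10 rose and 5 fell, beside 29% and 33.6% of all genes. On day 20 against day 16, 10 rose and 7 fell, beside 29.8% and 34.8%, and the 7 became 4 without the set 2 array of day 20. Acss1, the mitochondrial counterpart of Acss2, fell by 2.25 on the log2 scale on day 8 against day 0 (SE 0.10, adjusted p = 6.45e-14) and rose by 1.59 ± 0.10 to day 12 (adjusted p = 7.1e-11), the same directions as Acss2. Slc25a1, the mitochondrial citrate carrier that feeds Acly, fell on day 8 against day 0 (-0.89 ± 0.09, adjusted p = 1.46e-08), where Acly rose. Acacb, the mitochondrial carboxylase, rose from day 16 to day 20 (1.02 ± 0.13, adjusted p = 6.21e-07). Tecr, which completes each elongation cycle, fell over that step (-1.30 ± 0.08, adjusted p = 2.44e-12), while Hacd3, a dehydratase of the same cycle, rose (1.17 ± 0.08, adjusted p = 2.08e-11).

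Genes of triglyceride synthesis and lipid droplets, 15 measured, gave 8 rises and 5 falls from day 16 to day 20, a step at which 29.8% of all genes rose and 34.8% fell. Dgat2, which makes triglyceride, rose there by 2.69 ± 0.13 (adjusted p = 5.68e-14), over the step at which Scd1 fell. Mgll, which releases fatty acid from monoglyceride, rose on day 8 against day 0 (3.61 ± 0.11, adjusted p = 4.58e-17). Of 19 measured fatty acid oxidation genes, 6 rose and 5 fell from day 16 to day 20, with Hadha, a subunit of the mitochondrial trifunctional protein, up by 2.06 ± 0.15 (adjusted p = 7.12e-11). Counts for each list describe the list and were not tested as sets.

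Proliferation genes and melanocyte genes moved with the members on day 20. All 5 measured proliferation genes (Top2a, Aurkb, Foxm1, Mcm5 and Tk1) fell from day 16 to day 20, with a median of -4.82, and all 10 melanocyte markers fell, with a median of -2.53. From day 12 to day 16, 4 of the 5 proliferation genes rose (median 0.45), while 4 melanocyte markers rose and 3 fell. On day 8 against day 0, where Acly, Elovl6, Scd1, Scd2 and Fads2 rose, 4 of 5 proliferation genes rose (median 0.87) and 10 of 10 melanocyte markers rose (median 2.31). Over all genes, 34.8% fell from day 16 to day 20, 20% rose and 18.9% fell from day 12 to day 16, and 29% rose on day 8 against day 0. The part of cell growth or of the melanocyte program in the members' changes was not tested.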

How the data were processed

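RNA for 12 arrays was hybridized to Illumina bead arrays. Per the file headers, the deposited signal table gives a linear intensity averaged over the beads of each probe and a detection p-value against negative controls. The authors' value table holds the same intensity values after a straight-line transform that gave every array a mean of 280.64, as found from the values, and served as an alternative. Its set numbers are exchanged with those of the signal table on 3 days. Scanner software, array version and genome build are not given in the sources used here. Platform annotation named 1 gene for 34885 probes, several for 18 and none for 10378.

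Signals were background-corrected and quantile-normalized with neqc (limma 3.58.1, R 4.3.3; background inferred from the detection p-values, offset 16), and a probe was kept where its detection p was below 0.05 on 2 or more arrays. Quantile normalization forces equal distributions, which affects bright probes such as the tested probe of Fads1. Per-probe models (lmFit, then eBayes allowing for an intensity trend) used all 12 arrays, with a mean for every day or for the 2 pigmentation states. The script was tested on simulated data. All members' probes are accounted for, and the brightest tested probe stands for a gene. Up to 3 genes with the largest rise and 3 with the largest fall past the threshold could be named from a list in a comparison, and the 3 most alike genes by Pearson r. The members, lists and tests were chosen with earlier results of these data known. Deviations of same-numbered arrays from their day means correlated at -0.02 to 0.26 over 15 pairs of days, 7 of them over 0.1. With the value table's set numbers they correlated at -0.26 to 0.11, 1 of them over 0.1. A deviation shared within a set is thus possible. The main fit did not take set numbers as pairs, and fits with set as a term served as alternatives. The number of arrays limits the precision. Alternatives were another normalization, background correction, filter, value source, variance trend, set or density as a term, other handling of probes, and leaving out each array. Replicate block with the value table's set numbers, and a fit without days 4 and 8, were added after seeing the data.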

Additional observations from a re-analysis of the deposited data

How the results depend on the processing

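No called value of the members changed sign. Of 2095 alternative values for 90 results, 2052 kept their side of the threshold, 37 lost a call and 6 gained a call, while values not called could cross 0, such as Scd2 on day 12 against day 8 (-0.44 to 0.35). Those that matter are beside their results above. With set number as a replicate block, the 90 values kept their calls, and the members' counts were 8, 7, 9, 5 and 9 against day 0 on days 4 to 20, as without it. With the value table's set numbers as the block, the Srebf1 call on day 12 against day 0 was lost (adjusted p = 0.052). The 2 calls in the pigmentation comparison became 1 with no filter or with no intensity trend. They also became 1 with only probes detected on all 12 arrays, with 1 probe per gene or with the mean of a gene's probes. Those settings leave the dimmer Acss2 probe out or merge it with the brighter, so at most 1 Acss2 call was possible there. Leaving out 1 array gave 1 to 2 calls there, 5 to 9 on day 12 against day 0 (5 without the set 2 array of day 0) and 3 to 5 on day 16 against day 0 (3 without the set 1 array of day 0). Over all probes the pigmentation comparison called 3056, with 2011 under no filter and 1384 to 3815 with 1 array left out. With fewer features tested, 1 probe per gene called 9719 over the days, 7285, 7241, 6000, 5455 and 7797 on days 4 to 20 against day 0, 6127, 4635 and 7453 on days 12, 16 and 20 against the previous day, and 1938 for pigmentation. Mean probes called 9595, then 7092, 7099, 5776, 5218 and 7711, then 5902, 4391 and 7351, and 1892. Weak signal limits Acaca, Fasn and the dimmer probes, which lie near background. Having 2 arrays per day limits small changes.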

Other observations

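Genes around the pathway that the report does not describe also moved. Fabp5, a carrier of fatty acids in the cytosol, rose on day 8 against day 0 (log2 change 1.47 ± 0.12, limma adjusted p = 6.52e-10), fell from day 8 to day 12 (-1.62 ± 0.12, adjusted p = 4.02e-10) and fell from day 16 to day 20 (-1.80 ± 0.12, adjusted p = 1.98e-11). Fabp3, another carrier, rose over that last step (1.24 ± 0.11, adjusted p = 2.33e-09). Lpcat3, a target of the oxysterol receptor LXR that puts polyunsaturated fatty acids into phospholipids, fell from day 16 to day 20 (-1.78 ± 0.09, adjusted p = 2.48e-13), as Fads1 and Fads2 did. Of 5 listed LXR targets only 2 were measured, Lpcat3 and Mylip, the latter detected on 5 arrays. Both fell over that step, beside 34.8% of all genes. Abca1, Abcg1 and Nr1h3 were not detected on any array, and a part of LXR was not tested.

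Subunits of AMP-activated kinase, which inhibits acetyl-CoA carboxylase, moved in opposite directions from day 16 to day 20. The catalytic subunit gene Prkaa2 rose by 1.72 ± 0.10 (adjusted p = 1.5e-12) and its relative Prkaa1 fell by 0.87 on the log2 scale (SE 0.16, adjusted p = 6.37e-05). Of 12 measured genes of energy and growth signalling, 4 rose and 7 fell over that step, beside 29.8% and 34.8% of all genes. Of 5 measured pentose phosphate genes, which include sources of the NADPH used in fatty acid synthesis, 2 rose (Taldo1 and Rpia) and 1 fell (Pgls) over the same step. G6pdx was not analysed here.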
